A study of Mus musculus with 15 samples.

Results

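The genes of glycolysis and pyruvate metabolism were followed through the differentiation of mouse embryonic stem (ES) cells into paraxial mesoderm, the tissue that forms the somites. The 36 members were chosen by function, from glucose uptake to the entry of pyruvate into mitochondria, with no threshold on a measured value but with earlier results of these data known. Of the 36, 33 had an array probe set annotated to their symbol alone, and 29 were bright enough to be tested among 12400 genes tested in all. Eno2, Pdk2 and Pdk4 were too dim for the test and are described. Gapdh was measured only by the array's control probe sets, which were kept out of the main fit. Gpi1, Pfkfb1 and Eno1 were not analysed here, because no probe set used here carried their symbol alone.

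Glycolysis takes up glucose through membrane carriers, traps it by phosphorylation, commits it at phosphofructokinase and breaks it down to pyruvate with a gain of ATP. Pyruvate then either becomes lactate, which leaves the cell and restores the NAD that glycolysis needs, or enters the mitochondrion, where pyruvate dehydrogenase makes acetyl-CoA from it and pyruvate carboxylase makes oxaloacetate. Most steps are served by several isoenzymes from separate genes, whose use differs between tissues. In mouse and chick embryos, glycolysis is known to be more active in the posterior presomitic mesoderm of the tail than in the older, anterior part.

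Expression was measured on 15 Affymetrix arrays, 3 biological replicates in each of 5 groups. CDL cells at day 4 and at day 6 received the GSK3 inhibitor CHIRON99021 at 1 µM, and RDL cells at day 4 and at day 6 received the Wnt agonist Rspo3 at 10 ng/ml. Both media were based on DMEM with a serum replacement, 0.5% DMSO and 0.1 µM LDN, which blocks BMP receptors, and in both they followed 2 days of BMP4 at 10 ng/ml in serum-free N2B27. Cells of day 4 came from line E14 (129P2) and were sorted as positive for the fluorescent Msgn1 reporter, Msgn1-repV. Cells of day 6 came from another line, CK35 (129Sv), and were sorted as positive for GFP made under Pax3. The ES cells of day 0 were E14 cells, unsorted, in serum with LIF at 1500 U/ml, CHIRON99021 and the MEK inhibitor PD0325901, both at doses that the labels do not give. ES cells were kept on inactivated fibroblast feeders and passaged once without them before differentiation, and the labels do not say which of these cultures gave the RNA of day 0. Against ES cells, day 4 therefore differed in medium and sorting as well as in differentiation, and day 6 also in line and strain. These cannot be told apart, and neither can day 6 and day 4 from the change of line, strain and reporter. Each group rests on 1 cell line, and on bulk RNA less RNA per cell and fewer cells of a type cannot be told apart.

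Markers followed the labels. The summed signal of 6 measured presomitic genes lay between 6635 and 8448 on the CDL and RDL arrays of day 4 and between 175 and 192 on the ES arrays. The sum of 8 pluripotency genes lay between 22594 and 22957 on the ES arrays, between 747 and 1172 on 5 of the 6 arrays of day 4, and between 264 and 818 at day 6. None of these genes was listed at 0. CDL day 4 replicate 1 stood apart, with a pluripotency sum of 6669 and with 1441 units of Nanog, against 40.9 and 41.4 units on the other CDL arrays of day 4. On RDL day 6 replicate 1 the mean correlation with the other arrays of the group was the lowest (0.978) and the actin 3' to 5' ratio the highest (1.90). The sum of 8 somite and dermomyotome genes, Pax3 among them, lay between 3003 and 7938 at day 6 and between 309 and 351 on the ES arrays. The 7 fibroblast genes used to look for feeder cells, collagens among them, summed to between 5192 and 10086 at day 6, between 689.9 and 1034 at day 4 and between 179 and 199.8 on the ES arrays. Neural genes, Sox2 among them, summed to between 172 and 428 on the arrays of days 4 and 6 other than CDL day 4 replicate 1, which had 1261, and to between 3415 and 4141 on the ES arrays, where Sox2 is also a pluripotency gene. The sums of endothelial and blood, endodermal, and lateral plate and cardiac genes each lay between 64.8 and 303 on all arrays. The members' changes relative to ES cells moved with the loss of the pluripotency genes, and the part of any such cells in them was not tested beyond the values given without CDL day 4 replicate 1.

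Most members were lower in differentiated cells than in ES cells. Values are MAS5 signal units on a linear scale, differences are log2(signal + 12.6) and a member is called changed where limma's adjusted p over all 12400 genes is under 0.05. In RDL cells at day 4, 16 of 29 members were lower than in ES cells and 6 were higher, where 29.5% of all genes tested were lower, 27.6% were higher and 57.1% changed in either direction. The median difference of the members was -0.44, and that of all genes was -0.01. In CDL cells at day 4, 15 were lower and 5 higher (all genes: 29.6% lower, 26.6% higher, 56.2% either), with a median of -0.26 for the members and -0.02 for all genes. In RDL cells at day 6, 20 were lower and 3 higher (all genes: 33.3% lower, 28.3% higher, 61.6% either), with medians of -0.51 and -0.04. In CDL cells at day 6, 22 were lower and 2 higher (all genes: 33.3% lower, 27.8% higher, 61.0% either), with medians of -0.63 and -0.02. These 4 comparisons share the same 3 ES arrays. Without CDL day 4 replicate 1, 14 were lower and 4 higher in CDL cells at day 4. The share of all genes without that array is not given here.

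The members did not move as a block. The 12 genes Slc2a3, Hk1, Hk2, Pfkp, Pfkfb2, Aldoa, Pgam1, Pkm, Ldhb, Pdk1, Pdha1 and Pdhb were lower than in ES cells in all 4 comparisons. Pfkfb3 alone was higher in all 4. The share of all genes lower or higher in all 4 is not given here, so these counts have no background to be set against. Slc2a1, Aldoc, Pgam2 and Pcx were higher at day 4 in at least 1 medium and lower at day 6 in at least 1, Bpgm and Eno3 were higher in some groups, and Pfkfb4 and Pdk3 were called in no comparison with ES cells. The other 8, Pfkl, Pfkm, Tpi1, Pgk1, Ldha, Slc16a1, Slc16a3 and Dlat, were lower in some groups only. The plot of the members by array shows these patterns for each of the 15 arrays.

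**Figure D1:**
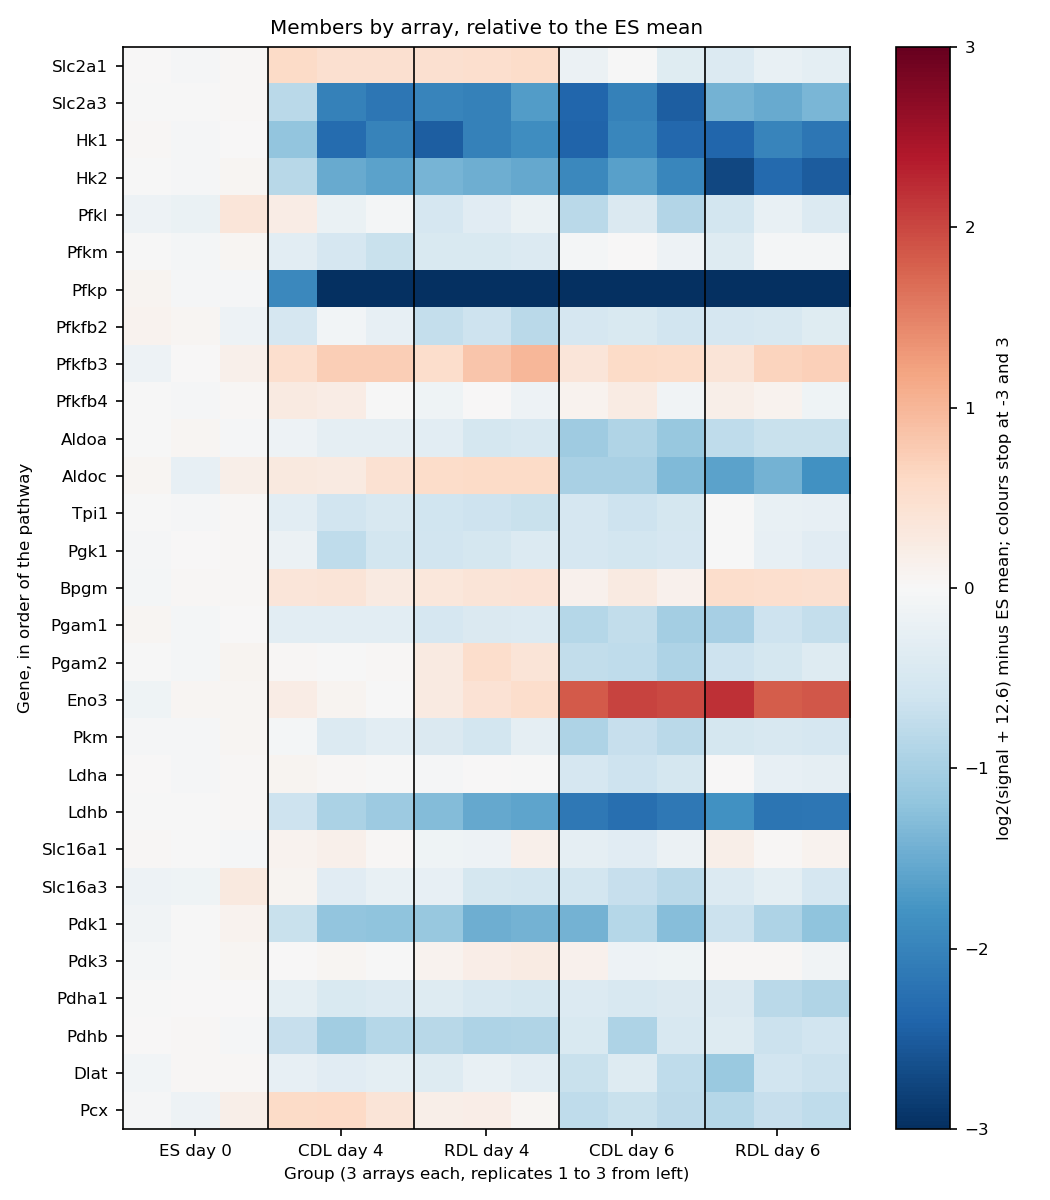
Each row is a member and each column an array; colour gives log2(signal + 12.6) minus the mean of that member's ES arrays. The rows of Pfkp, Slc2a3, Hk1, Hk2 and Ldhb are low on all arrays of days 4 and 6, with CDL day 4 replicate 1 less low than the other 2 CDL arrays of that day, and the row of Eno3 is high at day 6.

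Glucose enters through facilitative carriers, of which Slc2a1 (broadly expressed) and Slc2a3 (a high-affinity carrier of early embryo and neurons) were measured, and they moved differently. Slc2a3 had 9603, 9529.9 and 9861 units in ES cells. At day 4 Slc2a3 had 5537, 2365 and 2130.2 units in CDL cells and 2448, 2342 and 3006 in RDL cells. At day 6 Slc2a3 had 1848, 2361 and 1739 units in CDL cells and 3622, 3407 and 3742 in RDL cells. Every differentiated array lay below every ES array, and the highest was CDL day 4 replicate 1. The log2 difference from ES cells was -1.67 ± 0.24 (SE; adjusted p = 2.58e-05) in CDL and -1.90 ± 0.24 (SE; adjusted p = 5.89e-06) in RDL cells at day 4, and -2.29 ± 0.24 (SE; adjusted p = 6.29e-07) in CDL and -1.43 ± 0.24 (SE; adjusted p = 9.83e-05) in RDL cells at day 6. Other probe sets of the gene gave differences between -2.45 and -1.11 for RDL cells at day 4. Between day 6 and day 4 in RDL cells the difference was 0.47 (adjusted p = 0.164), with all day 6 arrays above all day 4 arrays. Without CDL day 4 replicate 1, which enters the shared estimate of spread, that difference was 0.47 (adjusted p = 0.00335).

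Slc2a1 went the other way at day 4. It had 2075, 2002 and 2099.6 units in ES cells. It read 3054, 2883 and 2880.1 units in CDL cells and 2897, 2910.0 and 3040.2 in RDL cells at day 4, all above the ES arrays. It read 1808, 2035 and 1589.9 units in CDL cells and 1545, 1773 and 1668 in RDL cells at day 6. It rose at day 4 by 0.51 (adjusted p = 6.93e-05) in CDL and 0.52 (adjusted p = 5.79e-05) in RDL cells against ES cells. Day 6 was below day 4, with log2 differences of -0.70 ± 0.08 (SE; adjusted p = 6.5e-06) in CDL and -0.82 ± 0.08 (SE; adjusted p = 1.37e-06) in RDL cells, with no overlap of the arrays. Against ES cells the difference at day 6 was -0.19 (adjusted p = 0.0575) in CDL and -0.31 (adjusted p = 0.00418) in RDL cells, and between the media at day 6 it was 0.12 (adjusted p = 0.508). The within-array distance between the 2 carriers, set to 0 for ES cells, was -2.18 ± 0.70 in CDL and -2.41 ± 0.15 in RDL cells at day 4 and -2.10 ± 0.09 in CDL and -1.12 ± 0.15 in RDL cells at day 6 (Slc2a3 minus Slc2a1, log2, SD, n = 3).

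The hexokinases, which trap glucose in the cell as its phosphate, both fell in all groups. Hk1, bound to mitochondria in most tissues, had 560.3, 537 and 554 units in ES cells. At day 4 Hk1 had 234, 102 and 127 units in CDL cells and 88.9, 126 and 143 in RDL cells. At day 6 Hk1 had 93.0, 131 and 97.3 units in CDL cells and 94.9, 130.4 and 113 in RDL cells. The differentiated arrays were all below the ES arrays, with CDL day 4 replicate 1 the highest of them. Against ES cells the log2 differences were -1.83 (adjusted p = 4.89e-06) in CDL and -2.11 (adjusted p = 8.94e-07) in RDL cells at day 4, and -2.25 (adjusted p = 3.84e-07) in CDL and -2.17 (adjusted p = 5.45e-07) in RDL cells at day 6, and day 6 was not called different from day 4 in CDL (-0.41, adjusted p = 0.17) or RDL cells (-0.06, adjusted p = 0.876). The difference in CDL cells was called without CDL day 4 replicate 2 (-0.65, adjusted p = 0.0422).

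Hk2, the isoenzyme of muscle and of many growing cells, fell in steps. It had 1464, 1449 and 1531 units in ES cells. It read 831, 507 and 481 units in CDL cells and 557, 531 and 506 in RDL cells at day 4. It read 377, 472 and 373 units in CDL cells and 212, 284 and 250.4 in RDL cells at day 6. Each RDL array of day 6 was below each RDL array of day 4, which was below each ES array. Day 6 was below day 4 in RDL cells, with a log2 difference of -1.07 ± 0.17 (SE; adjusted p = 0.00016). In CDL cells the same difference was -0.52 ± 0.17 (SE; adjusted p = 0.0219), and it was not called without CDL day 4 replicate 1 (-0.28, adjusted p = 0.112), CDL day 6 replicate 1 (-0.48, adjusted p = 0.0766) or CDL day 6 replicate 3 (-0.47, adjusted p = 0.0817). Hk1 relative to Hk2 within arrays moved by -0.41 ± 0.07 in CDL cells and by 0.35 ± 0.005 in RDL cells at day 6, with ES cells set to 0 (log2, SD, n = 3).

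Phosphofructokinase, the committing step, showed the largest fall of any member, in its platelet-type subunit Pfkp. Pfkp had 1178, 1074 and 1079 units in ES cells. At day 4 Pfkp had 280.3, 53.0 and 54.3 units in CDL cells and 47.5, 43.6 and 44.9 in RDL cells. At day 6 Pfkp had 41.7, 43.1 and 39.4 units in CDL cells and 36.1, 35.0 and 37.3 in RDL cells. The level of the RDL cells was 4.08% of that of ES cells at day 4 and 3.25% at day 6, and 1 CDL array of day 4, replicate 1, was far above its mates. The log2 difference from ES cells at day 4 was -3.37 ± 0.37 (SE; adjusted p = 1.33e-06) in CDL cells, -4.08 ± 0.09 (SE; adjusted p = 9.09e-15) in CDL cells without replicate 1 and -4.28 ± 0.37 (SE; adjusted p = 7.4e-08) in RDL cells. Day 6 against day 4 in CDL cells was -1.01 ± 0.37 (SE; adjusted p = 0.0429) with all arrays, -0.30 (adjusted p = 0.0238) without CDL day 4 replicate 1, and it was not called in 11 of the 15 fits that left out 1 array (adjusted p up to 0.104). The size also depends on the probe set, since 2 other probe sets of Pfkp fell by 1.36 and 1.47 in RDL cells at day 4 against ES cells.

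The liver-type subunit Pfkl and the muscle-type subunit Pfkm changed less. Pfkm had 238, 229 and 249 units in ES cells. It read 188, 163 and 146 units in CDL cells and 170.4, 171 and 177 in RDL cells at day 4, below all ES arrays. It read 227, 241 and 214 units in CDL cells and 179, 228 and 229 in RDL cells at day 6. Pfkm fell, with log2 differences of -0.50 (adjusted p = 0.00123) in CDL and -0.44 (adjusted p = 0.00319) in RDL cells at day 4 and rose between day 4 and day 6 in CDL cells (0.44 ± 0.11, SE, adjusted p = 0.00642), while day 6 was not called different from ES cells in CDL (-0.07, adjusted p = 0.627) or RDL cells (-0.17, adjusted p = 0.199). Pfkl was lower than in ES cells at day 6 in CDL cells (-0.70, adjusted p = 0.0016) and in RDL cells (-0.40, adjusted p = 0.049), the second call being lost in 10 of the 15 fits that left out 1 array (adjusted p up to 0.277). With the mean of all probe sets of Pfkl, these differences were -0.33 (adjusted p = 0.00804) in CDL cells and -0.17 (adjusted p = 0.157), not called, in RDL cells. In CDL cells Pfkl was also lower at day 6 than at day 4 (-0.69, adjusted p = 0.00378), but its probe sets disagreed there, 1 of them giving 0.33 (adjusted p = 0.0234).

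The bifunctional enzymes of the Pfkfb family set the level of the sugar phosphate that activates phosphofructokinase, and the 3 measured did not move together. Pfkfb3, whose kinase activity outweighs its phosphatase, had 27.9, 32.6 and 37.5 units in ES cells. At day 4 Pfkfb3 had 51.4, 63.2 and 62.6 units in CDL cells and 52.3, 67.6 and 77.1 in RDL cells, and at day 6 45.6, 54.1 and 53.8 in CDL cells and 46.3, 58.8 and 61.8 in RDL cells. All 12 differentiated arrays were above the 3 ES arrays, and the log2 differences ran from 0.50 in CDL cells at day 6 to 0.78 in RDL cells at day 4, the highest adjusted p being 0.00357. With the mean of all probe sets of Pfkfb3, they ran from 0.24 (adjusted p = 0.0137) in CDL cells at day 6 to 0.39 (adjusted p = 0.000536) in RDL cells at day 4. Pfkfb2 was lower than in ES cells, with log2 differences of -0.71 (adjusted p = 3.51e-05) in RDL cells at day 4, -0.51 (adjusted p = 0.000678) in CDL and -0.45 (adjusted p = 0.00185) in RDL cells at day 6. Its difference in CDL cells at day 4 was -0.28 (adjusted p = 0.0389), with overlapping arrays. It was not called without CDL day 4 replicate 1 (-0.17, adjusted p = 0.202), CDL day 4 replicate 3 (-0.30, adjusted p = 0.062), ES replicate 1 (-0.23, adjusted p = 0.14) or ES replicate 2 (-0.26, adjusted p = 0.109). Pfkfb4 was not called in any of the comparisons with ES cells, the largest difference being 0.16 (adjusted p = 0.231) in CDL cells at day 4.

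Promoters of members that fell and of members that did not are printed where the genes are described, from RefSeq on GRCm38.p6, from 250 bases before to 50 after the start site. Capitals mark the core that hypoxia-inducible factor, a known activator of many glycolytic genes, reads: ACGTG or GCGTG on either strand. Of the 36 members 35 had an entry, with 55 promoters in all. The core was in 39 of the 55 (70.9%) and in 43.8% of all 32851 mouse promoters in the table, and the median GC content was 60.3% and 52.7%. The E-box CACGTG, which overlaps the core, was in 12.7% of the members' promoters and 7.15% of all. Neither TCAAGGTCA, read by oestrogen-related receptors, nor CTTTGAT, read by TCF/LEF factors of the Wnt pathway, was in any member promoter, and they were in 0.423% and 3.73% of all. The promoter of Pfkp, chr13:6648722-6649021 on the minus strand, is shown because this gene fell furthest, and it holds 4 cores.
Pfkp: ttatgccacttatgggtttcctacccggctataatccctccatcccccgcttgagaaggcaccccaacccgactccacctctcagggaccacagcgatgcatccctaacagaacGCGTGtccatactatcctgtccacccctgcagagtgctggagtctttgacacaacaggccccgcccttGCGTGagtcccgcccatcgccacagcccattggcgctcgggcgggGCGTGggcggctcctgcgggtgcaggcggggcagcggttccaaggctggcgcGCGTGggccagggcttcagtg

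Aldolase splits the sugar bisphosphate into trioses. Aldoa, the main isoenzyme of most tissues, fell in every group. It had 5309, 5531 and 5195 units in ES cells. It read 4814, 4395 and 4403 units in CDL cells and 4254, 3686 and 3825 in RDL cells at day 4. It read 2557, 2837 and 2405 units in CDL cells and 3149, 3367 and 3366 in RDL cells at day 6. No array of day 6 reached any array of day 4, and the CDL arrays of day 6 were all below the RDL arrays of that day. Against ES cells the log2 difference was -0.24 ± 0.07 (SE; adjusted p = 0.0109) in CDL and -0.45 ± 0.07 (SE; adjusted p = 6.07e-05) in RDL cells at day 4, and -1.04 ± 0.07 (SE; adjusted p = 4.63e-09) in CDL and -0.70 ± 0.07 (SE; adjusted p = 4.35e-07) in RDL cells at day 6. Day 6 against day 4 was -0.80 (adjusted p = 3.24e-07) in CDL cells and -0.25 (adjusted p = 0.0155) in RDL cells, and the second was not called without RDL day 4 replicate 1 (-0.19, adjusted p = 0.0778).

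Aldoc, the brain-type aldolase, was higher at day 4 and lower at day 6 than in ES cells. It had 247, 196 and 267 units in ES cells. At day 4 Aldoc had 291, 286 and 329 units in CDL cells and 347, 355 and 358 in RDL cells. At day 6 Aldoc had 113, 113 and 87.0 units in CDL cells and 68.2, 80.5 and 57.9 in RDL cells. The arrays of day 4 were all above, and those of day 6 all below, the ES arrays. Day 6 differed from day 4, with log2 differences of -1.43 ± 0.13 (SE; adjusted p = 5.16e-07) in CDL and -2.18 ± 0.13 (SE; adjusted p = 4.29e-09) in RDL cells. The size depends on the probe set. With the mean of all probe sets of the gene, these differences were -0.72 (adjusted p = 4.25e-06) in CDL and -1.11 (adjusted p = 4.52e-08) in RDL cells. Against ES cells Aldoc rose at day 4 in RDL cells (0.56, adjusted p = 0.00188), and in CDL cells the difference was 0.34 (adjusted p = 0.0398), a call lost in 6 of the 15 fits that left out 1 array (adjusted p up to 0.208), CDL day 4 replicate 1 among them (0.37, adjusted p = 0.0537). At day 6 it was lower than in ES cells, with log2 differences of -1.09 (adjusted p = 3.09e-06) in CDL and -1.61 (adjusted p = 3.36e-08) in RDL cells.

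The next enzymes interconvert the trioses and bring the first ATP. Tpi1, triose phosphate isomerase, fell at day 4 against ES cells, with log2 differences of -0.46 (adjusted p = 0.000105) in CDL and -0.63 (adjusted p = 3.4e-06) in RDL cells. It had 3401, 3315 and 3518 units in ES cells. It read 2733, 2292 and 2444 units in CDL cells and 2259.6, 2205 and 2137 in RDL cells at day 4. It read 2406, 2207 and 2374 units in CDL cells and 3356, 2936 and 2869 in RDL cells at day 6. The RDL cells of day 6 were above those of day 4 (0.47 ± 0.08, SE, adjusted p = 0.000239), while in CDL cells day 6 was not called different from day 4 (-0.09 ± 0.08, SE, adjusted p = 0.358).

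Pgk1, phosphoglycerate kinase, had a like course. It had 4824, 4973 and 5099 units in ES cells. At day 4 Pgk1 had 4360.3, 2906 and 3369.6 units in CDL cells and 3336, 3446 and 3714 in RDL cells. At day 6 Pgk1 had 3472, 3378 and 3487 units in CDL cells and 4922, 4163 and 3930.3 in RDL cells. Pgk1 fell at day 4 against ES cells, with log2 differences of -0.50 (adjusted p = 0.00124) in CDL and -0.50 (adjusted p = 0.00118) in RDL cells, with CDL day 4 replicate 1 again the highest of its group. Day 6 against day 4 in RDL cells was 0.30 (adjusted p = 0.053), with no overlap of arrays, and 0.30 (adjusted p = 0.0389) with the replicate number as a block. Gapdh, the enzyme between them and a common reference gene, was read by a control probe set at 11584, 11775 and 11662 units in ES cells. It had 11060.2, 10133 and 10547 units in CDL cells and 10360.5, 9764 and 10596 in RDL cells at day 4, and 10636, 9997 and 10478 in CDL cells and 11690.1, 11159 and 11349.9 in RDL cells at day 6. In a fit that kept the control probe sets, added after seeing the data, Gapdh differed from ES cells, with log2 differences of -0.14 (adjusted p = 0.0117) in CDL and -0.19 (adjusted p = 0.00158) in RDL cells at day 4, and of -0.17 (adjusted p = 0.00316) in CDL and -0.03 (adjusted p = 0.522) in RDL cells at day 6.

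Phosphoglycerate mutase moves the phosphate group before the last steps, and its isoenzymes differed. Pgam1, the form of most tissues, fell in every group. It had 2779.6, 2558 and 2714 units in ES cells, with all differentiated arrays lower. It read 2164, 2151 and 2142 units in CDL cells and 1880.5, 1986 and 2020.2 in RDL cells at day 4, and at day 6 1485, 1591 and 1310.1 in CDL cells and 1342, 1729 and 1637 in RDL cells. The differences from ES cells were -0.32 (adjusted p = 0.00842) in CDL and -0.45 (adjusted p = 0.00059) in RDL cells at day 4, and -0.87 (adjusted p = 5.67e-07) in CDL and -0.78 (adjusted p = 2.12e-06) in RDL cells at day 6. Day 6 was also lower than day 4, with log2 differences of -0.56 (adjusted p = 0.000195) in CDL and -0.33 (adjusted p = 0.0133) in RDL cells, the second call being lost without RDL day 4 replicate 3 (-0.31, adjusted p = 0.0504). Pgam2, the muscle form, had low signal throughout, at 64.9 ± 1.53 units in CDL and 87.8 ± 8.83 in RDL cells at day 4 (SD, n = 3 each). It was lower at day 6 than at day 4, with log2 differences of -0.83 (adjusted p = 3.76e-06) in CDL and -0.90 (adjusted p = 1.93e-06) in RDL cells. Bpgm, which makes bisphosphoglycerate, was higher than in ES cells at day 4, with log2 differences of 0.34 (adjusted p = 0.00289) in CDL and 0.37 (adjusted p = 0.00155) in RDL cells, and at day 6 in RDL cells (0.51, adjusted p = 8.55e-05).

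Among enolases, 1 member rose at day 6. Eno3, the muscle enolase, had 111, 126 and 128 units in ES cells. At day 4 Eno3 had 145, 129 and 119.5 units in CDL cells and 149, 168 and 181 in RDL cells. At day 6 Eno3 had 467, 536 and 518 units in CDL cells and 602, 460.0 and 475 in RDL cells. The 6 arrays of day 6 were above all 9 others, at 417% of ES cells in CDL and 421% in RDL cells. Day 6 differed from day 4, with log2 differences of 1.86 ± 0.12 (SE; adjusted p = 7.18e-09) in CDL and 1.55 ± 0.12 (SE; adjusted p = 7.44e-08) in RDL cells, and day 4 from ES cells, with log2 differences of 0.10 (adjusted p = 0.531) in CDL and 0.41 (adjusted p = 0.0086) in RDL cells. Eno2, the neuronal enolase, was dim, at 19.2, 15.6 and 17.7 units in ES cells and between 9.73 and 14.4 units elsewhere. The promoter of Eno3, chr11:70656926-70657225 on the plus strand, is shown as that of the member that rose most at day 6, and it holds 1 core.
Eno3: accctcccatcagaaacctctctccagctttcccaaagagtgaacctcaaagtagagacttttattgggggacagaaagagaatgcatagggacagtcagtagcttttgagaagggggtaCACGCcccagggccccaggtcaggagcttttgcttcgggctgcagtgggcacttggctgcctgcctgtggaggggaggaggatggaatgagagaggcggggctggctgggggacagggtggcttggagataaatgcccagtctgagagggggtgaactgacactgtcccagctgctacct

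Pkm, pyruvate kinase, makes pyruvate and the last ATP. It had 3307, 3295 and 3522 units in ES cells. It read 3246, 2545 and 2701 units in CDL cells and 2478, 2308 and 2812 in RDL cells at day 4. It read 1783, 2085 and 1931 units in CDL cells and 2342, 2407 and 2367 in RDL cells at day 6. Every differentiated array was below every ES array, CDL day 4 replicate 1 by the least. Pkm fell, with log2 differences of -0.26 (adjusted p = 0.0262) in CDL and -0.42 (adjusted p = 0.00116) in RDL cells at day 4, and of -0.80 (adjusted p = 1.61e-06) in CDL and -0.51 (adjusted p = 0.000194) in RDL cells at day 6, all against ES cells. The call in CDL cells at day 4 was lost without ES replicate 3 (-0.23, adjusted p = 0.0903), CDL day 4 replicate 2 (-0.19, adjusted p = 0.139) or CDL day 4 replicate 3 (-0.23, adjusted p = 0.0883). The array does not give the splice forms of Pkm here.

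Lactate dehydrogenase interconverts pyruvate and lactate as a tetramer of A and B subunits, and the subunit genes parted. Ldha, the A subunit, had 4542, 4409 and 4599 units in ES cells. At day 4 Ldha had 4815, 4612 and 4505 units in CDL cells and 4429.8, 4537 and 4473 in RDL cells. At day 6 Ldha had 3202, 2937 and 3129 units in CDL cells and 4522, 3827 and 3754 in RDL cells. At day 4 the groups overlapped the ES arrays and the differences were 0.04 ± 0.07 (SE; adjusted p = 0.649) in CDL and -0.01 ± 0.07 (SE; adjusted p = 0.899) in RDL cells. At day 6 Ldha was lower in CDL cells than in ES cells (-0.55 ± 0.07, SE, adjusted p = 2.95e-06) and than in CDL cells of day 4 (-0.59 ± 0.07, SE, adjusted p = 4.56e-06). In RDL cells at day 6 the difference from ES cells was -0.17 (adjusted p = 0.0408), with overlapping arrays, and was not called in 8 of the 15 fits that left out 1 array (adjusted p up to 0.179). Without RDL day 6 replicate 1 it was -0.25 (adjusted p = 0.000747), and the difference from RDL cells of day 4 was -0.24 (adjusted p = 0.00317) without that array and -0.16 (adjusted p = 0.0932) with it.

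Ldhb, the B subunit, had 3513, 3525 and 3644 units in ES cells. It read 2299.9, 1823 and 1665 units in CDL cells and 1445, 1227 and 1174 in RDL cells at day 4. It read 793, 738 and 796 units in CDL cells and 1006, 764 and 779 in RDL cells at day 6. The days did not overlap: all ES arrays were highest, then those of day 4, then those of day 6. The log2 difference from ES cells was -0.89 ± 0.12 (SE; adjusted p = 1.39e-05) in CDL and -1.47 ± 0.12 (SE; adjusted p = 4.67e-08) in RDL cells at day 4, and -2.18 ± 0.12 (SE; adjusted p = 4.59e-10) in CDL and -2.06 ± 0.12 (SE; adjusted p = 7.75e-10) in RDL cells at day 6. Day 6 was below day 4, with log2 differences of -1.29 (adjusted p = 6.67e-07) in CDL and -0.59 (adjusted p = 0.00173) in RDL cells, and 3 other probe sets of Ldhb gave differences between -1.32 and -1.25 for RDL cells at day 4 against ES cells. Within arrays, Ldhb moved relative to Ldha by -0.93 ± 0.19 in CDL and -1.46 ± 0.17 in RDL cells at day 4, and by -1.63 ± 0.02 in CDL and -1.89 ± 0.08 in RDL cells at day 6, with ES cells set to 0 (log2, SD, n = 3). The promoters of both genes are set side by side because their courses parted: Ldhb, chr6:142507908-142508207 on the minus strand, with 1 core, and Ldha, chr7:46845554-46845853 on the plus strand, with 7 overlapping or separate cores. Ldha has another promoter in the table, which holds 2.
Ldhb: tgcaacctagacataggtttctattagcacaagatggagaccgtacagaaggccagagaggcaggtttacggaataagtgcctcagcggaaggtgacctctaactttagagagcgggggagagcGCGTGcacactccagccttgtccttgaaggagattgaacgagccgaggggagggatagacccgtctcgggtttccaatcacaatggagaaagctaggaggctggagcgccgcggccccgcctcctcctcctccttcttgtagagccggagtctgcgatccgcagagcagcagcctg
Ldha: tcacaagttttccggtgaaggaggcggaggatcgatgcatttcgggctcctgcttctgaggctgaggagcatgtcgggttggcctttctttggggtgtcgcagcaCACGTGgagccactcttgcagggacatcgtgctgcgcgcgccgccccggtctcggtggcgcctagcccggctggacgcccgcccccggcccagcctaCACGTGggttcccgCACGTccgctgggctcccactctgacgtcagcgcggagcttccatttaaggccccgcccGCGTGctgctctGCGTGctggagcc

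**Figure D2:**
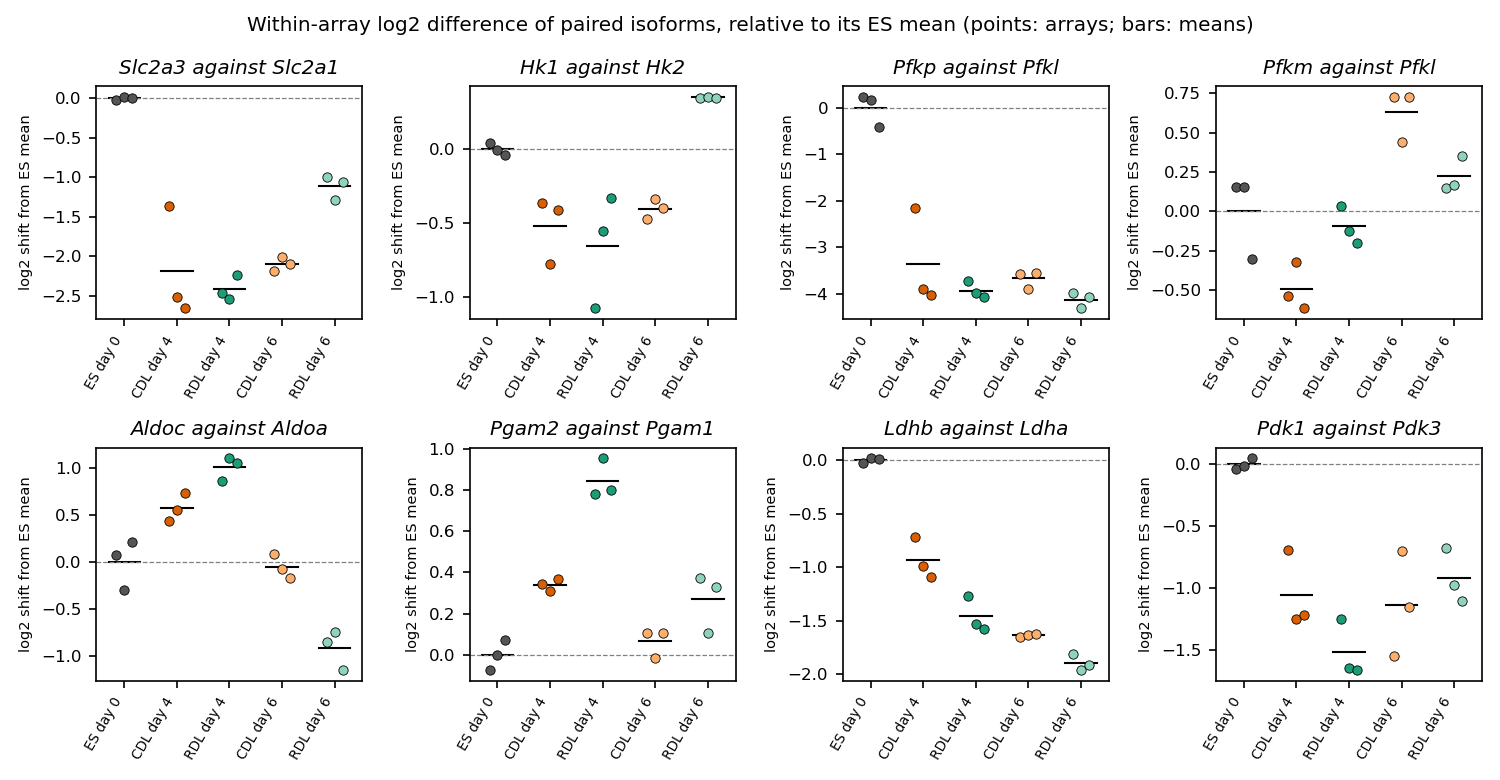
Points are arrays and the vertical axis is the within-array distance in log2(signal + 12.6) between 2 isoenzymes or carriers, minus its mean over the ES arrays. Ldhb relative to Ldha, Slc2a3 relative to Slc2a1 and Pfkp relative to Pfkl are below 0 on all arrays of days 4 and 6, and Aldoc relative to Aldoa is above 0 on all arrays of day 4.

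Lactate and pyruvate cross the membrane through monocarboxylate transporters. Slc16a1, the widespread form, had 1771, 1718 and 1701 units in ES cells. At day 4 Slc16a1 had 1871, 1918 and 1775 units in CDL cells and 1584, 1560.3 and 1931 in RDL cells. At day 6 Slc16a1 had 1439.7, 1355 and 1525 units in CDL cells and 1966, 1780.5 and 1874 in RDL cells. The CDL arrays of day 6 were the lowest of all, below ES cells (-0.26, adjusted p = 0.0135) and below CDL cells of day 4 (-0.36, adjusted p = 0.00326), and the other 3 groups were not called different from ES cells. With the mean of all probe sets of the gene, the difference of CDL cells at day 6 from ES cells was -0.17 (adjusted p = 0.0671) and no longer called. Between day 6 and day 4 in RDL cells the difference was 0.15 (adjusted p = 0.198), and it was called without RDL day 4 replicate 3 (0.25, adjusted p = 0.0343). Slc16a3, the lactate exporter of glycolytic tissues, had low signal, at 23.5 ± 3.18 units in CDL and 31.2 ± 3.19 in RDL cells at day 6, against 46.0 ± 10.9 units in ES cells (SD, n = 3 each). It was lower than in ES cells in CDL cells at day 6 (-0.69, adjusted p = 0.000346). The calls in RDL cells, -0.44 (adjusted p = 0.0104) at day 4 and -0.41 (adjusted p = 0.0158) at day 6, were lost without ES replicate 3 (-0.29, adjusted p = 0.0712, and -0.26, adjusted p = 0.105), and the second also without RDL day 6 replicate 3 (-0.36, adjusted p = 0.0589).

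At the gate to the mitochondrion, pyruvate dehydrogenase kinases switch pyruvate dehydrogenase off. Pdk1 had 238, 252 and 277 units in ES cells. It read 155, 105 and 103 units in CDL cells and 109.6, 85.1 and 87.5 in RDL cells at day 4. It read 86.9, 136 and 97.8 units in CDL cells and 159, 128 and 103 in RDL cells at day 6. All were below the ES arrays, with log2 differences of -1.03 (adjusted p = 0.000151) in CDL and -1.33 (adjusted p = 9.73e-06) in RDL cells at day 4 and of -1.19 (adjusted p = 2.96e-05) in CDL and -0.93 (adjusted p = 0.000315) in RDL cells at day 6. Pdk3 was not called in any of these comparisons, the largest difference being 0.18 (adjusted p = 0.118) in RDL cells at day 4. Pdk4, below the brightness needed for the test, had 30.3, 29.8 and 33.9 units in ES cells and between 8.01 and 15.6 units on the 12 other arrays. Pdk2 lay between 8.29 and 11.7 units on all 15 arrays, and no test was made of either.

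The pyruvate dehydrogenase complex itself fell in its first component. Pdha1 and Pdhb, its alpha and beta subunits, were lower than in ES cells in all groups. Pdhb had 1949, 1959.7 and 1863 units in ES cells. At day 4 Pdhb had 1182, 922 and 1052 units in CDL cells and 1084, 1009 and 1024 in RDL cells. At day 6 Pdhb had 1395, 1002 and 1367 units in CDL cells and 1466, 1229.8 and 1279 in RDL cells. The differences from ES cells were -0.87 (adjusted p = 1.43e-05) in CDL and -0.88 (adjusted p = 1.12e-05) in RDL cells at day 4, and -0.63 (adjusted p = 0.000287) in CDL and -0.54 (adjusted p = 0.00109) in RDL cells at day 6. In RDL cells day 6 was above day 4 (0.34, adjusted p = 0.0409), a call lost in 9 of the 15 fits that left out 1 array (adjusted p up to 0.131). Pdha1 was lower than in ES cells, with log2 differences of -0.40 (adjusted p = 0.00271) in CDL and -0.46 (adjusted p = 0.000787) in RDL cells at day 4, and of -0.44 (adjusted p = 0.00113) in CDL and -0.71 (adjusted p = 1.06e-05) in RDL cells at day 6. Its difference between day 6 and day 4 in RDL cells was -0.25 (adjusted p = 0.0646), -0.25 (adjusted p = 0.0353) with the replicate block and -0.39 (adjusted p = 0.000493) without RDL day 6 replicate 1. The difference of Pdhb between day 6 and day 4 in CDL cells was 0.24 (adjusted p = 0.125), and it was called without CDL day 6 replicate 2 (0.40, adjusted p = 0.006). Dlat, the second component, was lower than in ES cells at day 6, with log2 differences of -0.60 (adjusted p = 0.000858) in CDL and -0.78 (adjusted p = 8.09e-05) in RDL cells, though another probe set gave no call in either. At day 4 the differences were -0.30 (adjusted p = 0.0624) in CDL and -0.32 (adjusted p = 0.0507) in RDL cells. Both were called without RDL day 6 replicate 1 (adjusted p = 0.0116 and 0.00852). With the mean of all probe sets of Dlat they were -0.08 (adjusted p = 0.601) in CDL and -0.11 (adjusted p = 0.466) in RDL cells.

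Pcx, pyruvate carboxylase, refills the citric acid cycle with oxaloacetate. It had 133, 121 and 155 units in ES cells. It read 209, 213 and 181 units in CDL cells and 154, 157 and 142 in RDL cells at day 4. It read 74.9, 80.2 and 73.2 units in CDL cells and 70.0, 78.6 and 75.5 in RDL cells at day 6. The CDL arrays of day 4 were above, and all arrays of day 6 below, every ES array. Pcx rose in CDL cells at day 4 by 0.52 (adjusted p = 0.000446) against ES cells, while the difference in RDL cells was 0.14 (adjusted p = 0.272). Day 6 was below day 4, with log2 differences of -1.26 ± 0.10 (SE; adjusted p = 1.01e-07) in CDL and -0.91 ± 0.10 (SE; adjusted p = 5.63e-06) in RDL cells.

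**Figure D3:**
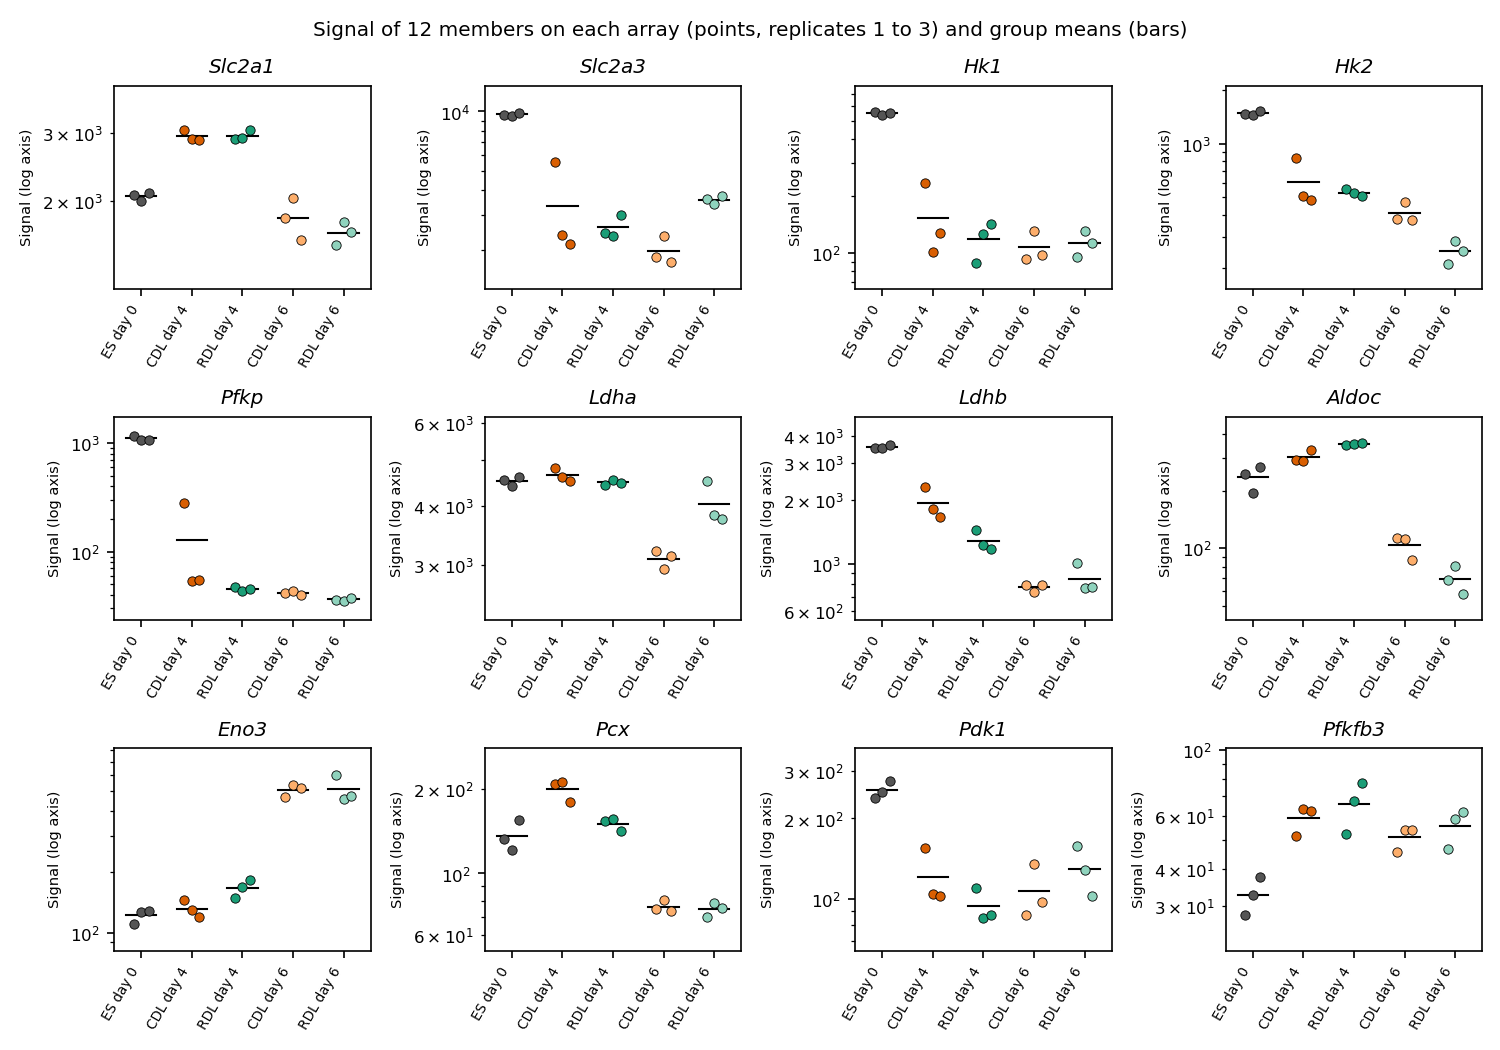
Signal in MAS5 units on a log axis for selected members, with 1 point per array and a bar at each group mean; groups run in order of day. Pfkp and Ldhb fall with differentiation, Ldha overlaps its ES arrays at day 4, Eno3 is highest at day 6, and 1 CDL array of day 4 lies above its mates for Pfkp and Slc2a3.

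Between day 6 and day 4, across the change of line and reporter, 14 of 29 members were lower and 2 higher in CDL cells (all genes: 22.0% lower, 17.4% higher, 39.4% either), with a median of -0.41 for the members and -0.02 for all genes. In RDL cells 9 were lower and 3 higher (all genes: 17.2% lower, 13.8% higher, 31.0% either), with medians of -0.09 and -0.02. With the replicate number as a block, 10 were lower and 4 higher in RDL cells, and with quantile scaling 9 were lower and 5 higher. Slc2a1, Hk2, Aldoa, Aldoc, Pgam1, Pgam2, Ldhb and Pcx were lower in both media, and Eno3 was higher in both. Dlat was lower in RDL cells (-0.46, adjusted p = 0.0133), a call lost without RDL day 4 replicate 2 (-0.42, adjusted p = 0.0592), and the difference was -0.30 (adjusted p = 0.0468) without RDL day 6 replicate 1. Another probe set of Dlat gave no call there. Without CDL day 4 replicate 1, RDL cells had 10 lower and 6 higher, and CDL cells again had 14 lower and 2 higher. In CDL cells the member in the middle of the order was then Hk2, at -0.28 (adjusted p = 0.112). The shares of all genes with the block, with quantile scaling and without that array are not given here. The counts under those settings therefore have no background to be set against.

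CDL and RDL cells were compared within each day, where line and reporter are the same. At day 4, CDL against RDL, 3 members were higher and 1 was lower (all genes: 2.90% higher, 1.52% lower, 4.41% either), with a median of 0.14 for the members and 0.00 for all genes. That median depends on CDL day 4 replicate 1. Without that array the member in the middle of the order was Pdha1, at 0.02 (adjusted p = 0.983). With all arrays, Pfkfb2 (0.43 ± 0.11, SE, adjusted p = 0.0322), Ldhb (0.58 ± 0.12, SE, adjusted p = 0.0122) and Pcx (0.38 ± 0.10, SE, adjusted p = 0.048) were higher in CDL cells and Pgam2 (-0.37 ± 0.09, SE, adjusted p = 0.0323) was lower. The arrays of CDL and RDL cells did not overlap for 12 of the 29 members, these 4 among them. The 4 were picked by adjusted p, so this is no further support, and the share over all genes is not given here. None of the 4 calls held in every fit that left out 1 array, and the number called then lay between 0 and 4. Without CDL day 4 replicate 1 the 1 member called was Pfkfb2 (0.55, adjusted p = 0.00772), with Ldhb at 0.45 (adjusted p = 0.0608), Pcx at 0.35 (adjusted p = 0.164) and Pgam2 at -0.38 (adjusted p = 0.0752). At an unadjusted p under 0.05, 10 of 29 members differed. The share of all genes at that threshold is not given here, and the 4.41% above, for adjusted p, is no background for it. Of 3 other probe sets of the called members, 1 gave the same call and 2 gave none, all of Ldhb. With the mean of all probe sets of a gene, Ldhb (0.54, adjusted p = 0.0267), Pcx (0.38, adjusted p = 0.0234) and Pgam2 (-0.37, adjusted p = 0.0155) were called. Aldoa (0.28, adjusted p = 0.00745) was newly called in that fit, and Pfkfb2 was not tested in it. Markers of later paraxial mesoderm moved with this comparison: 5 of 7 tested somite and dermomyotome genes were lower in CDL cells and 0 higher, with a median of -1.19, and the sum of the list lay between 570.2 and 846 on the CDL arrays and between 2082 and 2164 on the RDL arrays. Of 8 pluripotency genes 1 was higher, and of 6 presomitic genes 1 was higher. The part of these cells in the members' differences was not tested.

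At day 6, CDL against RDL, 6 members were lower and 2 were higher (all genes: 3.94% lower, 3.68% higher, 7.61% either), with a median of -0.09 for the members and 0.00 for all genes. The members lower in CDL cells were Slc2a3 (-0.86 ± 0.24, SE, adjusted p = 0.0421), Aldoa (-0.34 ± 0.07, SE, adjusted p = 0.00668), Tpi1 (-0.39 ± 0.08, SE, adjusted p = 0.00453), Bpgm (-0.34 ± 0.09, SE, adjusted p = 0.0237), Ldha (-0.38 ± 0.07, SE, adjusted p = 0.00172) and Slc16a1 (-0.38 ± 0.09, SE, adjusted p = 0.0107). Hk2 (0.69 ± 0.17, SE, adjusted p = 0.0184) and Aldoc (0.52 ± 0.13, SE, adjusted p = 0.0242) were higher. The arrays of CDL and RDL cells did not overlap for 13 of the 29 members, these 8 among them. The 8 were picked by adjusted p, so this is no further support, and the share over all genes is not given here. Aldoa, Tpi1, Ldha and Slc16a1 were called in every fit that left out 1 array, but none of them was called with the compared groups alone. In that fit Slc2a3 was the only member called. Slc2a3 was not called in 10 of the 15 fits that left out 1 array (adjusted p up to 0.149), Bpgm in 4 of the 15 fits that left out 1 array (adjusted p up to 0.0866), Aldoc in 3 of the 15 fits that left out 1 array (adjusted p up to 0.12) and Hk2 in 2 of the 15 fits that left out 1 array (adjusted p up to 0.0698). Without RDL day 6 replicate 1 the difference was -0.29 ± 0.05 (SE; adjusted p = 0.00194) for Ldha, -0.37 ± 0.08 (SE; adjusted p = 0.00443) for Aldoa and -0.32 ± 0.07 (SE; adjusted p = 0.0102) for Tpi1. In that fit Slc2a3 (-0.86, adjusted p = 0.0573) was no longer called, and Pdha1, at 0.42 (adjusted p = 0.000922) against 0.28 (adjusted p = 0.113) with all arrays, and Pgam2, at -0.36 (adjusted p = 0.0304) against -0.30 (adjusted p = 0.0658), were called. Without CDL day 4 replicate 1, 8 were lower and 2 higher, and the share of all genes in that fit is not given here.

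The day 6 calls between the media also depended on the probe set. Of 11 other probe sets of the called members, 3 gave the same call and 8 gave none, among them 3 of Slc2a3 and 2 each of Aldoa and Bpgm. With the mean of all probe sets of a gene, Slc2a3 (-0.55, adjusted p = 0.0998), Bpgm (-0.22, adjusted p = 0.0554) and Slc16a1 (-0.26, adjusted p = 0.0536) were no longer called and Pgam2 (-0.30, adjusted p = 0.0356) was. Marker lists moved with this comparison too. Of 7 fibroblast genes 4 were lower in CDL cells and 0 higher, and their sum lay between 5192 and 7064 on the CDL arrays and between 7738 and 10086 on the RDL arrays. Of 7 tested somite and dermomyotome genes 3 were higher and 0 lower, with sums between 4790.1 and 7938 on the CDL arrays and between 3003 and 4631 on the RDL arrays. Of 6 presomitic genes 3 were higher and 0 lower, with sums between 674 and 903 on the CDL arrays and between 277 and 353 on the RDL arrays. The pluripotency sum lay between 586 and 818 on the CDL arrays and between 264 and 340.2 on the RDL arrays, with 1 of 8 genes higher. Of 3 tested endoderm genes 2 were lower, with sums between 116 and 144 on the CDL arrays and between 187 and 297 on the RDL arrays. Of 2 tested endothelial and blood genes 1 was lower, with sums between 126 and 156 on the CDL arrays and between 219 and 242 on the RDL arrays. Of 5 tested lateral plate and cardiac genes 1 was lower, with sums between 183 and 198 on the CDL arrays and between 211 and 303 on the RDL arrays. Only the neural sums overlapped between CDL and RDL arrays, with 1 of 5 genes higher. How often sums of other genes fail to overlap is not given here. The part of such cells in the members' differences was not tested.

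**Figure D4:**
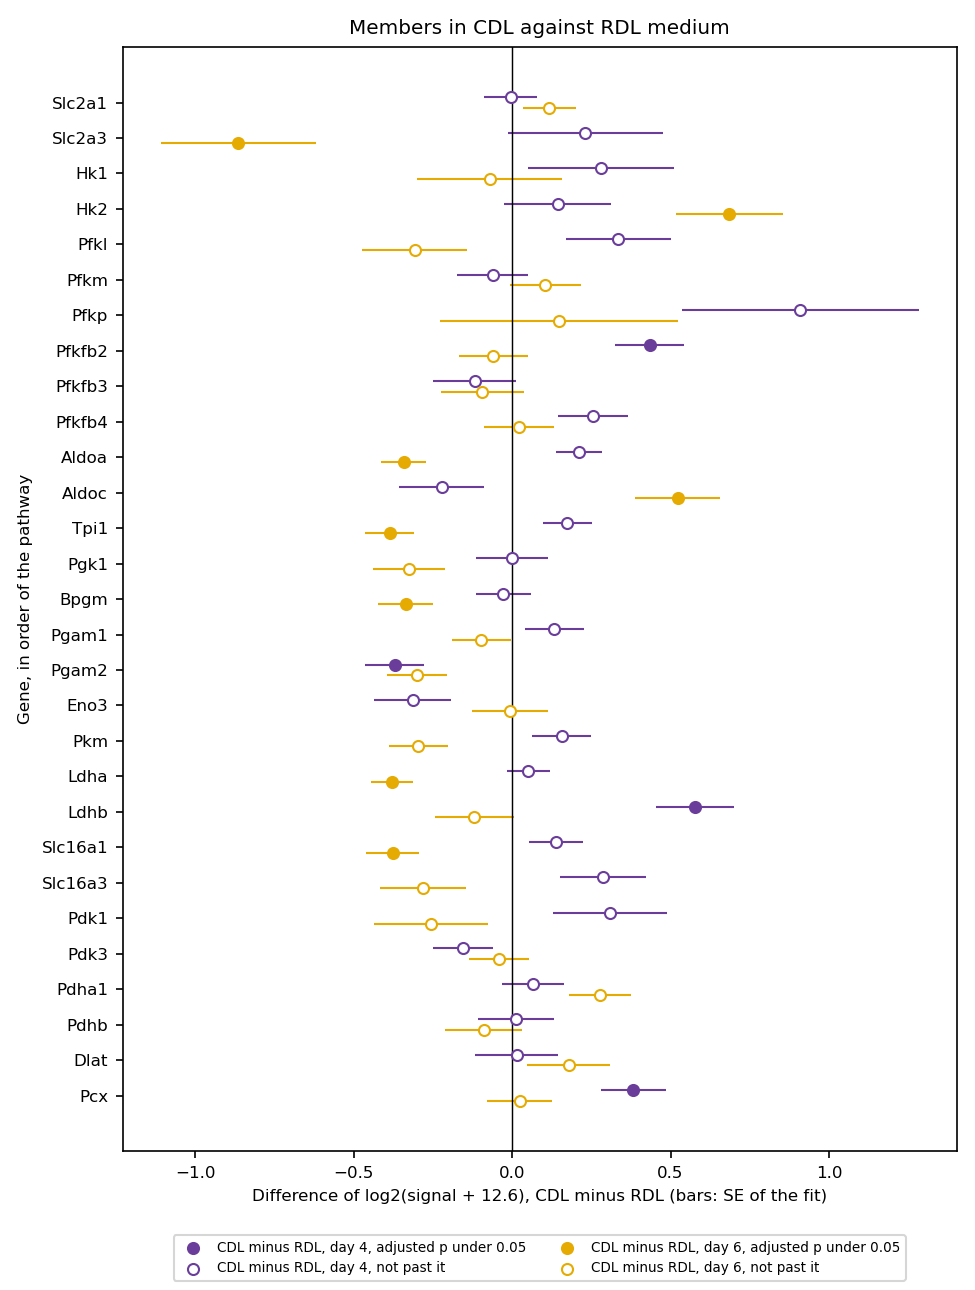
For each member the log2 difference of CDL minus RDL cells is drawn with its standard error, at day 4 and at day 6; the vertical line is at 0 and filled points are called. At day 6 Slc2a3, Ldha, Tpi1 and Aldoa lie below 0 and Hk2 and Aldoc above it, and at day 4 Ldhb, Pfkfb2 and Pcx lie above 0.

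Whether the effect of the medium differed between the days was tested as an interaction. It was called for 6 members, with 5 below 0 and 1 above (all genes: 3.08% below, 2.31% above, 5.39% either), and the median was -0.33 for the members and -0.01 for all genes. Without CDL day 4 replicate 1 the member in the middle of the order was Pfkfb4, at -0.18 (adjusted p = 0.721). With all arrays, Aldoa (-0.55 ± 0.10, SE, adjusted p = 0.00387), Tpi1 (-0.56 ± 0.11, SE, adjusted p = 0.00564), Ldha (-0.43 ± 0.09, SE, adjusted p = 0.0126), Ldhb (-0.70 ± 0.17, SE, adjusted p = 0.0275) and Slc16a1 (-0.52 ± 0.12, SE, adjusted p = 0.0181) were lower in CDL relative to RDL cells at day 6 than at day 4, and Aldoc (0.74 ± 0.19, SE, adjusted p = 0.03) was higher. Without CDL day 4 replicate 1, Aldoc (0.72, adjusted p = 0.0622) and Ldhb (-0.56, adjusted p = 0.0614) were no longer called, and Slc2a3 (-0.66, adjusted p = 0.0262), Hk2 (0.79, adjusted p = 0.0147) and Pfkfb2 (-0.61, adjusted p = 0.0202) were. The calls of Aldoa, Tpi1 and Ldha held in every fit that left out 1 array, that of Slc16a1 was lost in 3 of the 15 fits that left out 1 array (adjusted p up to 0.06), that of Ldhb in 4 of the 15 fits that left out 1 array (adjusted p up to 0.0777) and that of Aldoc in 8 of the 15 fits that left out 1 array (adjusted p up to 0.0861). Without RDL day 6 replicate 1 the interaction of Pdha1 was called (0.35, adjusted p = 0.0263), against 0.21 (adjusted p = 0.519) with all arrays. Pkm, not called with all arrays, was also called in that fit (-0.46, adjusted p = 0.0451). It was called in 4 of the 15 fits that left out 1 array (adjusted p down to 0.0325). With the mean of all probe sets of a gene, Slc16a1 (-0.39, adjusted p = 0.0533), Ldhb (-0.66, adjusted p = 0.0526) and Aldoc (0.40, adjusted p = 0.0513) were no longer called and Pdk1 (-0.69, adjusted p = 0.0218) was. Of 9 other probe sets of the called members, 5 gave the same call and 4 gave none. Of 7 somite and dermomyotome genes 6 had a called interaction, all above 0.

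CDL day 4 replicate 1 touched the members to unequal degrees. For the 6 tested members that were at least 2-fold apart between ES cells and the other CDL arrays of day 4, its level lay 21.4% to 44.3% of the way from those arrays to ES cells, with a median of 32.3%. The share was 44.3% for Slc2a3, 34.2% for Hk2, 34.0% for Pdk1, 30.6% for Ldhb, 27.5% for Hk1 and 21.4% for Pfkp. Without it, the differences of CDL cells at day 4 from ES cells were -2.10 (adjusted p = 4.69e-10) for Slc2a3, -2.15 (adjusted p = 5.8e-08) for Hk1, -1.56 (adjusted p = 4.67e-08) for Hk2, -1.02 (adjusted p = 2.39e-06) for Ldhb and -1.20 (adjusted p = 2.97e-05) for Pdk1. Other probe sets of the members, where a call was made, gave the same call in 120 of 146 cases, no call in 25 and the opposite call in 1, the case of Pfkl. This count and those given for the media and the interaction cover only probe sets bright enough to be tested.

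Other genes of the pathway, from a list of 22 enzymes outside the 36, were counted in the same fit. Of 17 tested, 7 were lower and 2 higher than in ES cells in CDL cells at day 4, 9 lower and 2 higher in RDL cells at day 4, 9 lower and 4 higher in CDL cells at day 6, and 11 lower and 4 higher in RDL cells at day 6. Of all genes tested, 56.2% changed in CDL and 57.1% in RDL cells at day 4, and 61.0% in CDL and 61.6% in RDL cells at day 6, and the 9 of 17 changed in CDL cells at day 4 are near that share. Tigar, a phosphatase that lowers the activator of phosphofructokinase, fell furthest in RDL cells at day 4 (-2.69, adjusted p = 8.87e-08), and with it Pgm2 (-1.91, adjusted p = 1.45e-08), a phosphoglucomutase. Of 10 tested pyruvate carriers and partners of pyruvate dehydrogenase, 6 were lower and 2 higher at day 4 in CDL cells, and the same counts held in RDL cells. Mpc1, a subunit of the mitochondrial pyruvate carrier (-1.60, adjusted p = 2.91e-07), and Pdp2, a phosphatase that switches pyruvate dehydrogenase on (-1.31, adjusted p = 1.98e-07), were among the lower ones in RDL cells.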

How the data were processed

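Per the labels' protocols, RNA of each sample was labelled after amplification in 2 cycles and hybridised to Affymetrix mouse arrays. Per the submitters' processing notes the deposited signal intensities were made with MAS5, whose version the sources used here do not give, and each of the 15 arrays has 1 linear intensity per probe set. No column was left unmapped, no value was missing, and no detection calls were used.

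Of 45101 probe sets, 64 controls were left out. A constant of 12.6, the median over arrays of the 25th percentile, was added to the deposited intensities before log2. A probe set was kept if 3 or more arrays had it over their 50th percentile, and each gene was read by its single-symbol probe set of highest mean, which left 12400 of 18193 genes. The 5 group means were estimated from the 15 arrays together in R 4.3.3, using limma 3.58.1 (eBayes with an intensity trend, Benjamini-Hochberg adjustment over all 12400 genes, threshold 0.05). With 3 arrays a group an exact permutation test cannot go under 0.1, so the array number limits precision. The labels call the arrays biological replicates, with no word on separate cultures, so p-values measure the spread between these samples.

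Same-numbered arrays of RDL day 6 and RDL day 4 deviated together (correlations 0.22 to 0.28). So did those of CDL and RDL day 4 (0.096 to 0.24) and of CDL day 6 and CDL day 4 (0.072 to 0.14). The main fit has no term for the number, and the fit with the replicate block is printed where it changes a call. All 36 members could be named, and from each other list up to 4 called genes with the largest differences. Members, lists and markers were chosen with earlier results of these data known. Alternatives were another constant, other filters, another choice of probe set, quantile scaling, the compared groups alone, the block, and leaving out arrays. Promoters came from RefSeq (GRCm38.p6). The fit was tested on simulated data, and matplotlib 3.10.9 (Python 3.11.15) drew the figures.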

Additional observations from a re-analysis of the deposited data

Results flagged for a closer look

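For 6 members the difference between CDL and RDL cells was itself different at day 6 and at day 4, by the test of the interaction. For Aldoa the interaction was -0.55 ± 0.10 (SE; adjusted p = 0.00387), for Tpi1 -0.56 ± 0.11 (SE; adjusted p = 0.00564), for Ldha -0.43 ± 0.09 (SE; adjusted p = 0.0126), for Slc16a1 -0.52 ± 0.12 (SE; adjusted p = 0.0181) and for Ldhb -0.70 ± 0.17 (SE; adjusted p = 0.0275), in each case with CDL cells lower against RDL cells at day 6 than at day 4. For Aldoc it was 0.74 ± 0.19 (SE; adjusted p = 0.03), in the opposite direction. The CDL minus RDL difference of Aldoa was -0.34 at day 6 and 0.21 at day 4, that of Tpi1 -0.39 at day 6 and 0.17 at day 4, and that of Ldhb -0.12 at day 6 and 0.58 at day 4. The days also differ in cell line, strain and reporter, which cannot be told apart from the day. The interactions of Aldoc (0.72, adjusted p = 0.0622) and Ldhb (-0.56, adjusted p = 0.0614) were not called without CDL day 4 replicate 1.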

How the results depend on the processing

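Of 6732 values of single members under an alternative, 6469 kept their side of the threshold, 169 were no longer called and 94 were newly called. No value called in either fit changed sign, while 86 of the 6469, called in neither, did. Among the counts of members called, those of the comparisons of media and of the interaction moved by over 1.5 times. At day 4 the number of members called between CDL and RDL cells was 4, and it was 1 with no filter, 1 with the filter at the 75th percentile and 1 with the compared groups alone. At day 6 it was 8, and 1, Slc2a3, with the compared groups alone. The interaction was called for 6, and for 10 without the 2 arrays that stood apart. The filter at the 75th percentile took Pfkfb2 and Pgam2, which lay under it, out of the test at day 4, so of the calls made there only that of Pcx was lost. The cause of the other changes was not tested, except that the compared groups alone give fewer arrays for the spread. Leaving out 1 array in turn gave 0 to 4 members called for CDL against RDL at day 4, 4 to 10 at day 6, 3 to 8 for the interaction, 10 to 16 for RDL day 6 against day 4, 14 to 18 for CDL day 6 against day 4, 17 to 21 for CDL day 4 against ES cells, 21 to 23 for RDL day 4, 20 to 24 for RDL day 6 and 24 to 25 for CDL day 6. All 3 arrays deviated most like the array of their own number between RDL day 4 and RDL day 6. The same held between CDL and RDL cells at day 4 and between CDL day 4 and CDL day 6. Between CDL and RDL cells at day 6 it held for 2 of 3 arrays (correlations -0.24 to 0.61). What links arrays of the same number was not tested. RDL day 4 and CDL day 6, which no comparison sets against each other alone, had correlations of 0.11 to 0.28. With the replicate block the numbers called were 21 for CDL and 23 for RDL day 4 against ES cells, 24 for CDL and 23 for RDL day 6 against ES cells, 16 for CDL and 14 for RDL day 6 against day 4, 3 and 8 for CDL against RDL at day 4 and day 6, and 6 for the interaction. The shares of all genes under the alternatives are not given here, so the counts of members under them have no background. Against ES cells the block added Dlat at day 4 in CDL cells (-0.30, adjusted p = 0.0403) and in RDL cells (-0.32, adjusted p = 0.032) and Tpi1 at day 6 in RDL cells (-0.16, adjusted p = 0.0461), where Pfkl was lost (-0.40, adjusted p = 0.0529), and Pcx was lost between the media at day 4 (0.38, adjusted p = 0.0584). Low signal over background keeps Eno2, Pdk2 and Pdk4 out of the tests.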

Other observations

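Genes of neighbouring pathways were counted in the same fit. Of 20 tested genes of the tricarboxylic acid cycle, 9 were higher and 3 lower in CDL cells at day 6 than at day 4 (all genes: 17.4% higher, 22.0% lower, 39.4% either). In RDL cells 4 were higher and 2 lower, together near the share of all genes (13.8% higher, 17.2% lower, 31.0% either). Idh2, a mitochondrial isocitrate dehydrogenase, was at 1.16 (adjusted p = 2.83e-07) in CDL cells. Of 29 respiratory chain subunits, 13 were higher and 5 lower in CDL cells at day 6 than at day 4, and 3 higher and 0 lower in RDL cells, against the same shares of all genes. Of 8 pentose phosphate genes, 4 were lower and 1 higher than in ES cells in RDL cells at day 4 (all genes: 29.5% lower, 27.6% higher, 57.1% either), together near the share of all genes. Taldo1, transaldolase, was among the lower ones (-0.90, adjusted p = 6.61e-07).

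Another list held 8 genes of serine synthesis, which leaves glycolysis at phosphoglycerate, and of the folate steps that follow it. Of these, 5 were higher and 0 lower in CDL than in RDL cells at day 6 (all genes: 3.68% higher, 3.94% lower, 7.61% either). Psph (0.75, adjusted p = 0.0157), Psat1 (0.45, adjusted p = 0.00618), Shmt2 (0.63, adjusted p = 0.0188) and Mthfd2 (0.77, adjusted p = 0.0353) were among them. Of 9 tested carriers and carrier partners, 0 were higher and 3 lower in that comparison: Txnip (-1.31, adjusted p = 5.6e-05), an arrestin-like protein known to remove glucose carriers from the membrane and to rise with glucose, its relative Arrdc4 (-1.13, adjusted p = 2.36e-06), and Emb (-1.01, adjusted p = 0.000112), a partner of lactate transporters. Of 20 genes of the hypoxia-inducible factor pathway, 7 were lower and 8 higher than in ES cells in RDL cells at day 4 (all genes: 29.5% lower, 27.6% higher, 57.1% either). Bnip3 was at -2.04 (adjusted p = 2.55e-05) and Ddit4 at 2.01 (adjusted p = 6.84e-08). Of 15 regulators of glycolytic genes, 4 were lower and 6 higher in the same comparison, against the same shares, with Myc at 1.80 (adjusted p = 1.08e-05). Esrrb, an oestrogen-related receptor of pluripotent cells, had between 8.38 and 9.63 units in RDL cells at day 4, below the added constant, against 1015 to 1222 units in ES cells, so no fold is given. Among all genes tested, 57.1% were called between RDL cells at day 4 and ES cells, 7.61% between CDL and RDL cells at day 6, 39.4% between day 6 and day 4 in CDL cells and 31.0% in RDL cells.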
